A study of Mus musculus with 4 samples.

Results

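The acinar cells of the exocrine pancreas make and secrete digestive enzymes, and the values described here are those of a list of 33 such genes in cells sorted from the spleen. The members were the probes whose only gene symbol in the platform's annotation is on that list, which gave 39 of the 34885 probes with 1 symbol, for 30 of the 33 genes and of 19057 genes in all. The list was chosen by intensities measured on these arrays, since members were known to be high on the Ifnar-/- array and low on the sLTβR-Fc array, so its values are given as a description without a test. Pnlip, the main pancreatic lipase, Prss1, a trypsin, and Amy2b, a pancreatic amylase, are not the only symbol of any probe here and were not analysed.

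RNA came from marginal zone macrophages, phagocytes at the border of the white and red pulp, of BXD2 mice, a recombinant inbred strain with a lupus-like disease. The sort took CD11b-low, F4/80-negative, I-Ab-negative and SIGN-R1-positive cells. Each of the 4 bead arrays measured the pooled cells of 2 mice aged 2.5 months. The Ifnar-/- array came from BXD2-Ifnar-/- mice, which lack the type I interferon receptor and were given PBS. The sLTβR-Fc array came from BXD2 mice given 25 µg of sLTβR-Fc per mouse intravenously, a soluble decoy of the lymphotoxin β receptor. The controls were 2 arrays of BXD2 mice given PBS, called PBS 1 and PBS 2 here, and all mice were killed 10 hours after injection. A control Fc protein was not among the treatments. The labels do not say where the receptor gene was disrupted. The Ifnar-/- and sLTβR-Fc groups have no replicate, so no difference from the controls has a replicate check and precision is limited by the small number of arrays.

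Acinar cells store their enzymes, most of them as inactive precursors, in zymogen granules and release them into the ducts that lead to the gut. Their enzyme genes are switched on together by a complex of PTF1A, an E protein and RBPJ or its relative RBPJL, which binds an E-box next to a second site with the core TGGGAA. The tail of the pancreas lies against the spleen. The question put to these data was in what order and by how much the enzyme genes differed over the 4 arrays. Carry-over of pancreatic tissue or its RNA into the sorted samples was not tested.

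The promoters of 5 members, picked after their values were seen, are shown because these genes, which lie on 4 chromosomes, had similar orders over the arrays. The sequences are those of RefSeq in GRCm38.p6, from 250 bases before to 50 after the start of the gene, on the strand of the gene. Capitals mark E-boxes (CANNTG), the core TGGGAA and the sequence TATAAA, the last 2 on either strand. They are Amy2a5 at chr3:113258650-113258949 (minus strand), Cela2a at chr4:141825956-141826255 (minus strand), Pnliprp1 at chr19:58728637-58728936 (plus strand), Prss2 at chr6:41521526-41521825 (plus strand) and Cpa1 at chr6:30638968-30639267 (plus strand).
Amy2a5: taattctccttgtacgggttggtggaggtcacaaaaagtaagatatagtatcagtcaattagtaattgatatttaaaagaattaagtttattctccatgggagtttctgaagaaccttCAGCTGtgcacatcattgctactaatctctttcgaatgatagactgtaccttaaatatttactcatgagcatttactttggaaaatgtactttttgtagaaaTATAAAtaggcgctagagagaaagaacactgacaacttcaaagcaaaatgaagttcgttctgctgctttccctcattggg
Cela2a: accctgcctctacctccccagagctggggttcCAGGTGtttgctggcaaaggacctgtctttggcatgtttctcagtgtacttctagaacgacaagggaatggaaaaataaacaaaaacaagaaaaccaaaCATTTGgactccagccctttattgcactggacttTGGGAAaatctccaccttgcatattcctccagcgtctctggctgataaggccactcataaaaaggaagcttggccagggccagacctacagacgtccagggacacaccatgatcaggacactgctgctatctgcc
Pnliprp1: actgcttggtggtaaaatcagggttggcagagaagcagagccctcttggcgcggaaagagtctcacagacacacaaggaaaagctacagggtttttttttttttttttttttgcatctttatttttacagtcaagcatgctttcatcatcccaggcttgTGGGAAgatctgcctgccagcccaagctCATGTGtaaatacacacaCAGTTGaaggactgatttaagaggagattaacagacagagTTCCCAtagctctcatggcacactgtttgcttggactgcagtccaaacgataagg
Prss2: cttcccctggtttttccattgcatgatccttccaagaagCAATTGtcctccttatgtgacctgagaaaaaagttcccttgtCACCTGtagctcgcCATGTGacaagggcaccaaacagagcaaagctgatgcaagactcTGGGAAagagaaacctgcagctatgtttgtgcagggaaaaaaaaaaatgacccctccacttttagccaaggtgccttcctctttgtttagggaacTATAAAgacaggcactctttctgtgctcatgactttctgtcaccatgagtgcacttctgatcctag
Cpa1: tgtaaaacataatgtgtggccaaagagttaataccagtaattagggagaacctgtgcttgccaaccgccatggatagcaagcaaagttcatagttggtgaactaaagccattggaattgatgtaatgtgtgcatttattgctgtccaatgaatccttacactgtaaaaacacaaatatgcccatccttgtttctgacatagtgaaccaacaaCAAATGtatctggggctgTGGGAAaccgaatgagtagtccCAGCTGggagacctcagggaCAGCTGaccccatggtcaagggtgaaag
Of the 33 members, 27 have a promoter in the RefSeq table. An E-box was found in 23 of these and in 72.3% of all 32851 promoters in the table. The core TGGGAA was found in 16 of 27 member promoters and in 25.6% of all, and TATAAA in 12 of 27 and in 13.6% of all. An E-box and a TGGGAA core with first bases 10 to 30 apart were found in 8 of 27 and in 5.28% of all. Of the 5 promoters shown, those of Pnliprp1 and Cpa1 have this pair, those of Cela2a and Prss2 do not, and that of Amy2a5 lacks TGGGAA. Marked motifs overlapped each other in 1 member promoter. These matches describe letters in a window and are not shown to be sites.

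Intensities were normalised to a common distribution, and a probe counted as above background where it passed the 95% point of its array's noise, which 50.4% to 52.5% of all probes did. Of the 39 member probes, 33 lay above background on the Ifnar-/- array, 15 on the sLTβR-Fc array, 29 on PBS 1 and 30 on PBS 2. The 6 probes below background on every array are those of Ctrc, a chymotrypsin-like protease, Reg2, a secreted lectin-like protein, both probes of Rbpjl, 1 of Cela1 and 1 of Amy2a5. The other 33 probes, of 27 genes, passed the filter, and since they needed a signal on only 1 array, shares among them say less than shares of all 39. Intensities above 104, the most frequent normalised intensity, were summed over the 39 probes, also those below background. The sums came to 22664 on the Ifnar-/- array, 990 on the sLTβR-Fc array, 4372 on PBS 1 and 9990 on PBS 2. Without Amy2a5 the sums were 10471 on the Ifnar-/- array, 965 on the sLTβR-Fc array, 1953 on PBS 1 and 3661 on PBS 2. With Amy2a5 but without Klk1 and Bhlha15, described below, they were 22341.5 on the Ifnar-/- array, 490 on the sLTβR-Fc array, 3985 on PBS 1 and 9500 on PBS 2.

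**Figure D1:**
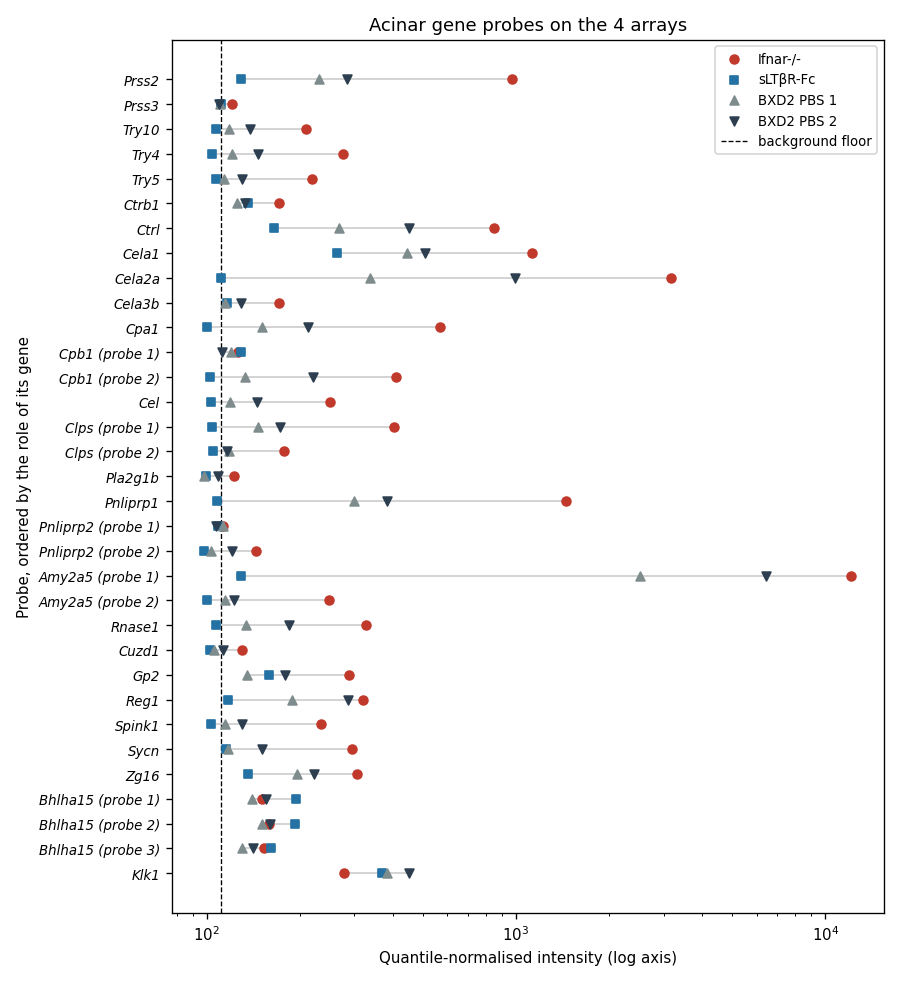
Normalised intensity (x axis, log scale) of each acinar gene probe above background on at least 1 array, with circles for Ifnar-/-, squares for sLTβR-Fc and triangles for PBS 1 (up) and PBS 2 (down); the dashed line is the floor of 111. For most enzymes the Ifnar-/- circle lies far right and the sLTβR-Fc square at the dashed line, while Bhlha15 and Klk1 do not show this order.

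The gene of amylase, which cleaves starch, was 94.4-fold higher on the Ifnar-/- array than on the sLTβR-Fc array on its first probe. This probe of Amy2a5 read 12153 on the Ifnar-/- array, 129 on the sLTβR-Fc array, 2513 on PBS 1 and 6416 on PBS 2. It was thus above both controls without interferon receptor, and near background after the decoy, where the controls' mean was 31.2-fold its level. That log2 difference, -4.96, was the lowest of all 23299 probes with 1 symbol that lay above background on at least 1 array. The controls themselves stood 2.55-fold apart, and the Ifnar-/- array was 3.03-fold their mean (log2 1.60) but less than 2-fold above PBS 2 (log2 0.92). A second probe read 249 on the Ifnar-/- array, was not above background on the sLTβR-Fc array, and read 115 and 122 on the controls, while the third was below background everywhere. The amylase genes are close relatives, and which of them each probe detects cannot be told from the files. Rnase1, the pancreatic ribonuclease, read 328 on the Ifnar-/- array, was not above background on the sLTβR-Fc array and read 134 on PBS 1 and 184 on PBS 2. In bulk samples such as these, fewer cells of a type and less RNA per cell cannot be told apart.

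Elastases are serine proteases of the pancreatic juice. Cela2a read 3179 on the Ifnar-/- array, was not above background on the sLTβR-Fc array, and read 337 on PBS 1 and 995 on PBS 2. The Ifnar-/- array was 5.49-fold the mean of the controls (log2 2.46), and the controls' mean was at least 5.17-fold the sLTβR-Fc array. Among the 23299 probes Cela2a ranked second from the top in the first difference. Cela1 read 1129 on the Ifnar-/- array, 263 on the sLTβR-Fc array, and 444 and 507 on the controls, and was above background everywhere on this probe. Cela3b was nearer the noise, at 171 on the Ifnar-/- array, 116 on the sLTβR-Fc array, and 115 and 129 on the controls.

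Trypsins are serine proteases that activate the other zymogens. Prss2 read 973 on the Ifnar-/- array, 129 on the sLTβR-Fc array, 230 on PBS 1 and 284 on PBS 2, which is 3.80-fold the control mean (log2 1.93) for Ifnar-/- and a log2 of -0.99 for sLTβR-Fc. Try4 read 276 on the Ifnar-/- array, against 121 on PBS 1 and 146 on PBS 2. Try5 read 219 on the Ifnar-/- array, against 114 and 130 on the controls. All of Try4, Try5 and Try10 lay above both controls on the Ifnar-/- array and below background on the sLTβR-Fc array. Try10 read 210 on the Ifnar-/- array, against 118 and 138 on the controls, and Prss3 was above background on the Ifnar-/- array alone, at 121 (at least 1.09-fold the controls). Trypsin genes lie close together on chromosome 6 and are similar in sequence, so their probes may share signal.

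Chymotrypsins and carboxypeptidases complete the set of pancreatic proteases. Ctrl, a chymotrypsin-like enzyme, read 848 on the Ifnar-/- array, 165 on the sLTβR-Fc array, 267 on PBS 1 and 451 on PBS 2. Its log2 difference from the control mean was 1.29 for Ifnar-/- and -1.08 for sLTβR-Fc, while the controls differed by 0.76. Ctrb1, chymotrypsinogen B, read 172 on the Ifnar-/- array, 136 on the sLTβR-Fc array, and 125 and 133 on the controls once normalised. As deposited its sLTβR-Fc value was 128, below the controls at 130.5 and 139, so its direction there depends on the scaling. Cpa1, carboxypeptidase A, read 570 on the Ifnar-/- array, was not above background on the sLTβR-Fc array, and read 151 on PBS 1 and 212 on PBS 2 (3.18-fold the control mean for Ifnar-/-). Of 2 probes for Cpb1, carboxypeptidase B, the one with the fuller range read 408 on the Ifnar-/- array, against 133 on PBS 1 and 221 on PBS 2, and was not above background on the sLTβR-Fc array. The other lay between 112 and 129 on all arrays.

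Genes of fat digestion encode lipases, their relatives and colipase. Pnliprp1, a lipase-related protein, read 1447 on the Ifnar-/- array, was not above background on the sLTβR-Fc array, and read 299 on PBS 1 and 383 on PBS 2. The Ifnar-/- array was 4.27-fold the control mean (log2 2.10), and the control mean was at least 3.02-fold the sLTβR-Fc array. Clps, the colipase that anchors lipase to fat droplets, read 403 on the Ifnar-/- array on its first probe, against 147 and 173 on the controls. Its second probe read 177 on the Ifnar-/- array, against 118 and 116 on the controls, and neither was above background on the sLTβR-Fc array. Cel, the bile salt-activated lipase, read 250 on the Ifnar-/- array, against 119 and 146 on the controls, and was not above background on the sLTβR-Fc array. Pla2g1b, a secreted phospholipase, was above background on the Ifnar-/- array alone, at 123 (at least 1.10-fold the controls). Both probes of Pnliprp2, a further lipase relative, stayed at or below 144.

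Proteins of the zymogen granule and other secreted products were measured next. Sycn, a granule protein, read 296 on the Ifnar-/- array, 116 on the sLTβR-Fc array, 117 on PBS 1 and 151 on PBS 2. Gp2, the main granule membrane glycoprotein, read 289 on the Ifnar-/- array, 160 on the sLTβR-Fc array, 135 on PBS 1 and 179 on PBS 2. Its sLTβR-Fc value lay between the controls once normalised, but as deposited it was 141, below both (144 and 192). Zg16, a granule lectin that goblet cells of the gut make too, read 306 on the Ifnar-/- array, 136 on the sLTβR-Fc array, and 196 and 222 on the controls. The trypsin inhibitor gene Spink1 read 234 on the Ifnar-/- array, against 115 and 130 on the controls, and was not above background on the sLTβR-Fc array. Reg1, a secreted lectin-like protein of acinar cells, read 321 on the Ifnar-/- array, 117 on the sLTβR-Fc array, 188 on PBS 1 and 285 on PBS 2, and its Ifnar-/- value was close to PBS 2. As deposited its Ifnar-/- value was 300, below PBS 2 at 314, so the order of these arrays depends on the scaling. Cuzd1, a zymogen granule membrane protein, stayed at or below 130.

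Bhlha15 and Klk1 went another way. Bhlha15, also called Mist1, is a transcription factor of acinar cells that plasma cells express as well, and its 3 probes read 151, 159 and 153 on the Ifnar-/- array. With sLTβR-Fc they read 195, 193 and 162. On PBS 1 they read 140, 151 and 130.1, and on PBS 2 they read 155, 161 and 141. Once normalised, the sLTβR-Fc array was the highest on all 3, with log2 differences between 0.26 and 0.40 from the control mean. As deposited it was below PBS 2 on all 3, with log2 differences of 0.049, -0.062 and 0.0042 from the control mean, so this direction depends on the scaling. Klk1, tissue kallikrein, is made by kidney and salivary gland as well as pancreas. It read 277 on the Ifnar-/- array, the lowest of its values, 368 on the sLTβR-Fc array, 384 on PBS 1 and 451 on PBS 2. As deposited its log2 difference from the control mean was -0.80 on the sLTβR-Fc array, against -0.18 once normalised.

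Of the 33 probes that passed the filter, 29 were above both controls on the Ifnar-/- array (39.9% of 23299 probes) and 21 below both on the sLTβR-Fc array (32.7%). With the floor doubled these counts were 18 and 7, and as deposited 26 and 27. The shares of all probes were counted in the main setting alone, so these counts have no background beside them. Over the list, 7 of 39 probes were at least 2-fold above each control on the Ifnar-/- array, and 0 were 2-fold below. They belong to Prss2, Cela1, Cela2a, Cpa1, Clps, Pnliprp1 and Amy2a5 (its second probe). Among the 23299 probes above background, 0.489% (114) were 2-fold higher and 0.777% (181) lower, and among all 34885 probes 0.327% and 0.519%. In the values as deposited, without scaling, 47 and 400 of the 23299 were higher and lower, and 5 member probes were higher, as Cela1 and the second probe of Amy2a5 stood at log2 0.93 each. On the sLTβR-Fc array, 3 member probes were at least 2-fold below each control, those of Amy2a5 (its first probe), Cela2a and Pnliprp1, and 0 were 2-fold above. The background for lower values was 0.403% of the 23299 probes (94) and for higher values 0.777% (181), or 0.269% and 0.519% of all 34885, and as deposited 878 were lower and 38 higher, with 6 member probes lower. The choice of the list used both comparisons, and nothing is read from these shares. Set against PBS 1 alone, 16 member probes were 2-fold higher on the Ifnar-/- array (218 of the 23299), and set against PBS 2 alone, 6 were 2-fold lower on the sLTβR-Fc array (145 of the 23299). After background subtraction, which widens the differences of dim probes, 22 were higher on the Ifnar-/- array (756 of the 23299) and 12 lower on the sLTβR-Fc array (1234 of the 23299).

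Cela2a and Pnliprp1 met both conditions, 2-fold above each control on the Ifnar-/- array and 2-fold below each on the sLTβR-Fc array. No other probe with 1 symbol did in the normalised values (0.00858% of 23299 for both probes). The comparisons share their controls, so the conditions are not independent. The median log2 difference of the 33 probes from the control mean was 0.85 for Ifnar-/- and -0.18 for sLTβR-Fc, against 0 and -0.00028 over the 23299 probes. Over all 39 probes the medians were 0.55 and -0.089. As 18 of the 33 probes were not above background on the sLTβR-Fc array, the floor limits their difference.

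**Figure D2:**
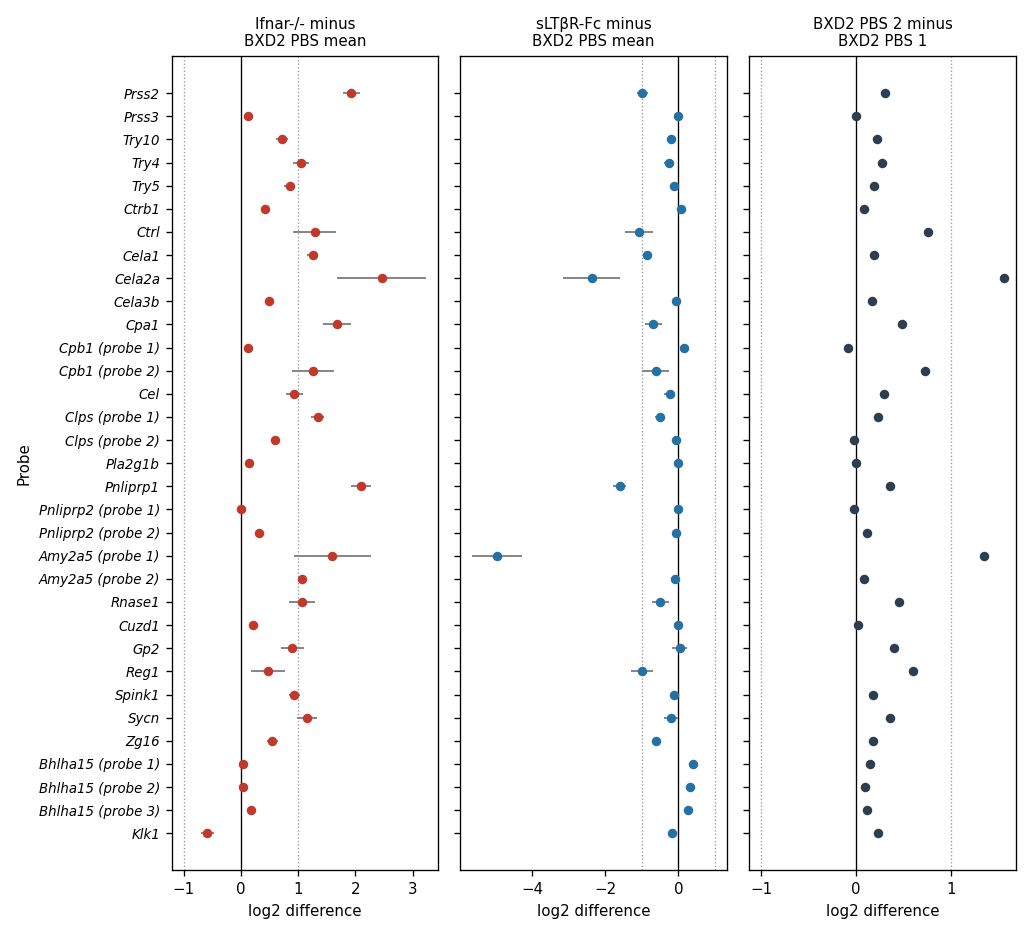
Log2 difference (x axis) of each acinar gene probe from the mean of the BXD2 PBS arrays, for Ifnar-/- (left panel) and sLTβR-Fc (middle panel), and between the controls (right panel); grey bars run between the differences from PBS 1 and PBS 2 taken singly, and dotted lines mark 2-fold. Ifnar-/- differences reach 2.46 (Cela2a), sLTβR-Fc differences -4.96 (Amy2a5), and control differences 1.56 (Cela2a).

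The controls differed from each other on these genes. PBS 2 was above PBS 1 on 28 of the 33 probes, against 47.2% of the 23299 probes above background. The median log2 difference, PBS 2 minus PBS 1, was 0.19, against 0 over all. Cela2a and the first probe of Amy2a5 had the largest gaps in this direction of the 23299 probes, at log2 1.56 and 1.35. A gap of 2-fold or more in this direction was found for 7 of the 23299 probes (0.03%). This pair of arrays holds the only replicate spread in the series. The full order of Ifnar-/- over PBS 2 over PBS 1 over sLTβR-Fc was found for 19 of the 39 member probes, against 4.62% of the 23299 probes and 3.09% of all 34885. With the floor doubled it was found for 6 of 33 member probes (1.98% of the 23299), and among probes above background on all arrays for 7 of 15 (6.04% of 15633). That order was part of the reason for choosing the list.

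The size of the differences was compared among members after subtracting the background, the most frequent normalised intensity of 104, from each value. This was done for the 15 probes, 1 per gene, that lay on average at least 50 above it on the controls. Relative to the control mean, the Ifnar-/- array held 6.03 times the signal for Cpa1, 5.68 for Prss2, 5.67 for Pnliprp1, 5.47 for Cela2a and 5.38 for Clps. These 5 genes lay close together on the Ifnar-/- array, although the ratio of PBS 2 to PBS 1 was 2.31 for Cpa1, 1.43 for Prss2 and Pnliprp1, 3.82 for Cela2a and 1.60 for Clps. Cpb1 and Rnase1 followed at 4.20 and 4.08, then Gp2 at 3.50, Ctrl at 2.92, Cela1 and Amy2a5 at 2.76 each, Zg16 at 1.92 and Reg1 at 1.64. These 13 ratios ran from 1.64 to 6.03 on 1 Ifnar-/- array, without a measure of error. Whether they differ by more than error was not tested. On the sLTβR-Fc array Cpa1, Cpb1, Clps, Cela2a, Pnliprp1 and Rnase1 were not above background, so no ratio is given. The remaining signal was 0.0056 of the control mean for Amy2a5, 0.094 for Reg1, 0.16 for Prss2, 0.24 for Ctrl, 0.30 for Zg16, 0.43 for Cela1 and 1.05 for Gp2. As deposited, Ctrl, Zg16, Cela1 and Gp2 read 144, 128, 207 and 141 there, against 165, 136, 263 and 160 once normalised. The size of their ratios thus rests on the normalisation too. Bhlha15 and Klk1 stood at 1.06 and 0.55 on the Ifnar-/- array and at 1.72 and 0.84 on the sLTβR-Fc array, and both of the last pair rest on the normalisation, as described above.

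**Figure D3:**
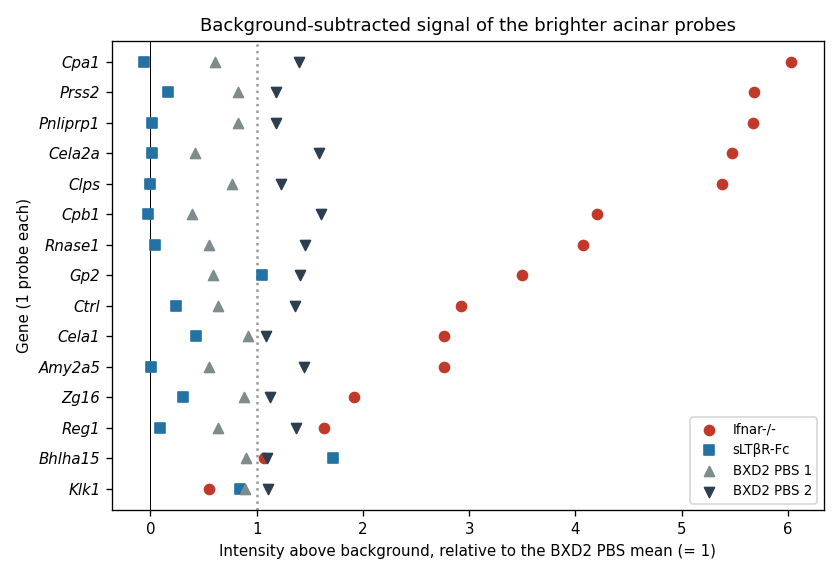
Background-subtracted intensity of 15 acinar gene probes (rows), divided by the mean of the BXD2 PBS arrays (x axis, control mean = 1), with circles for Ifnar-/-, squares for sLTβR-Fc and triangles for PBS 1 (up) and PBS 2 (down). Cpa1, Prss2, Pnliprp1, Cela2a and Clps lie between 5.38 and 6.03 on the Ifnar-/- array, and the sLTβR-Fc squares of Cpa1, Cpb1, Clps, Cela2a, Pnliprp1 and Rnase1 are of probes not above background there.

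Other pancreatic genes were examined beside the enzymes, from lists chosen with earlier results of these arrays known. Of 30 further genes named for acinar cells, 24 have a probe and 14 were above background on at least 1 array. The median log2 difference of their 20 probes was -0.0032 for Ifnar-/- and -0.019 for sLTβR-Fc. Ptf1a, the acinar lineage factor, Gata4, another transcription factor, and Cckar, the cholecystokinin receptor, were below background on every array. Slc38a5, an amino acid transporter that red cell precursors express too, met the 2-fold condition as lower on both arrays, at 507 on the Ifnar-/- array, 655 on the sLTβR-Fc array, and 2134 and 1649 on the controls. Bace1, a protease of many cell types, was 2-fold higher on the sLTβR-Fc array on 1 of 2 probes, at 1323 against 582 and 543. None of the 20 probes was 2-fold higher on the Ifnar-/- array. The order of Ifnar-/- over PBS 2 over PBS 1 over sLTβR-Fc was found for 3 of them, a probe each of Cldn10, Erp27 and Tff2. Dmbt1 and a probe of Gnmt were above background on the Ifnar-/- array alone, at 136 and 113.

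Islet markers were near background. Of 22 islet genes with a probe, 14 were above background on at least 1 array, the medians of their 15 probes were 0.015 for Ifnar-/- and -0.0056 for sLTβR-Fc, and 0 met the 2-fold condition in either direction. Intensities above 104 were summed as for the members over all 32 islet probes, also those below background on every array. The sums were 289 on the Ifnar-/- array, 156 on the sLTβR-Fc array, 153 on PBS 1 and 168 on PBS 2. Of the 289, Gcg, described below, gave 119. Ins2, an insulin gene, read 116 on the Ifnar-/- array, 125 on the sLTβR-Fc array, and 108 and 114 on the controls. Gcg, which encodes glucagon, was the exception, at 223 on the Ifnar-/- array, not above background on the sLTβR-Fc array, and 120 and 132 on the controls (log2 0.83 for Ifnar-/-).

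Duct and neighbouring epithelia were compared in the same way. Of 15 duct genes with a probe 12 were above background, and the medians of their 25 probes were -0.0059 for Ifnar-/- and -0.021 for sLTβR-Fc. The keratin gene Krt19, the chloride channel gene Cftr and Epcam, an epithelial adhesion gene, were below background on all arrays. The order of Ifnar-/- over PBS 2 over PBS 1 over sLTβR-Fc was found for 2 of the 25 probes, and neither met the 2-fold condition. They belong to Ambp and to Krt8, whose values are given below. Ambp read 240 on the Ifnar-/- array, 132 on the sLTβR-Fc array, 203 on PBS 1 and 209 on PBS 2. On 4 probes, of Aqp1, Car2 and Tspan8, duct genes were 2-fold lower than the controls on both arrays. These genes are not limited to ducts, and Aqp1 and Car2 are red cell genes as well. The first probe of Aqp1, a water channel, read 1212 on the Ifnar-/- array, 1781 on the sLTβR-Fc array, and 6028 and 4273 on the controls. Stomach and intestine, liver, adipocyte and mesothelium lists had 10, 6, 2 and 11 probes above background. Their medians lay between -0.0032 and 0.18 for Ifnar-/- and between -0.0031 and 0.14 for sLTβR-Fc, and no probe of them met the 2-fold condition. Their leading markers were Lgals4, a gut galectin, Trf, transferrin, Lep, leptin, and Krt8, a keratin, which read 332, 238, 130.3 and 179 on the Ifnar-/- array. With sLTβR-Fc they read 320, 262, 159 and 119. On PBS 1 they read 220, 192, 130.5 and 153, and on PBS 2 they read 266, 168, 130.0 and 162.

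**Figure D4:**
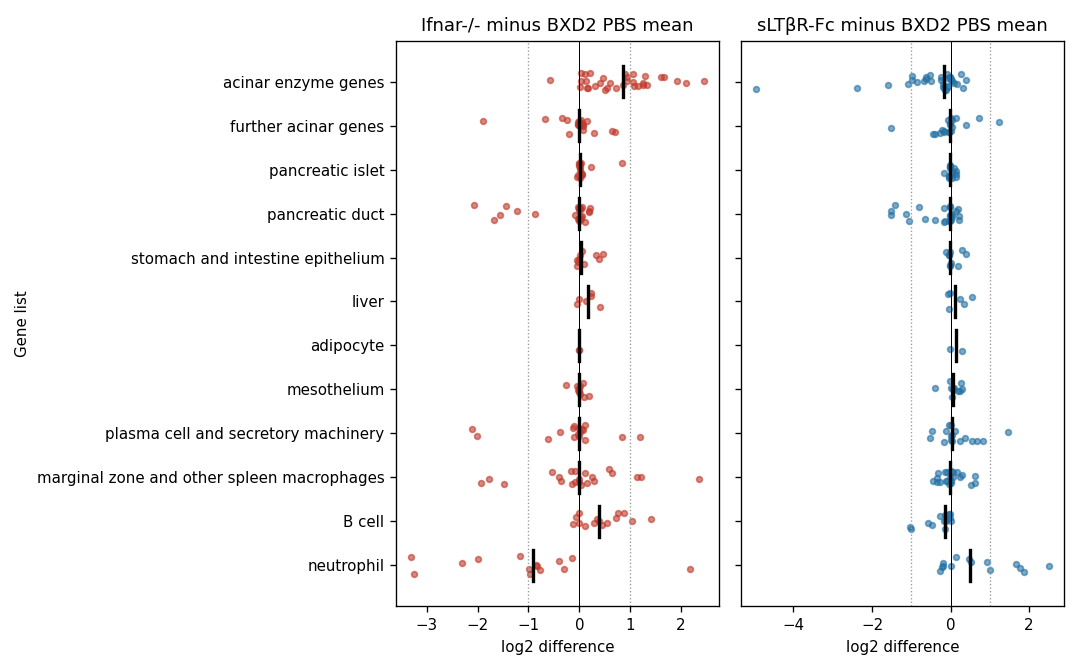
Log2 difference (x axis) from the BXD2 PBS mean of each probe above background (points) in the acinar enzyme list and in 11 comparison lists (rows), for Ifnar-/- (left) and sLTβR-Fc (right); black bars are medians and dotted lines mark 2-fold. The median of the enzyme list is 0.85 for Ifnar-/-, and those of the islet and duct lists are 0.015 and -0.0059.

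Markers of spleen cells also differed between the arrays. B cell probes, among them Cd79b, had a median of 0.39 for Ifnar-/- and -0.13 for sLTβR-Fc. On 1 probe the kinase gene Blk was 2-fold higher on the Ifnar-/- array, at 1582, with 552 on the sLTβR-Fc array, and 593 and 606 on the controls. A brighter Blk probe met no 2-fold condition, at 4958 on the Ifnar-/- array, 2143 on the sLTβR-Fc array, and 3181 and 2828 on the controls. Another Blk probe was above background on PBS 1 alone. The B cell medians depend on the scaling, at 0.081 and -0.60 as deposited and 0.20 and -0.51 with median scaling. Neutrophil probes had medians of -0.91 and 0.50 (-1.17 and 0.28 as deposited), and unlike the acinar enzymes they were lower on PBS 2 than on PBS 1 (median -0.40). Of the 14 neutrophil probes, 4 were 2-fold lower on the Ifnar-/- array, those of Ltf, Camp, S100a8 and S100a9, and Retnlg was 2-fold higher. Ltf, the granule protein lactoferrin, read 215 on the Ifnar-/- array, 2138 with sLTβR-Fc, 2811 on PBS 1 and 1617 on PBS 2. A further 4 were 2-fold higher on the sLTβR-Fc array, those of the granule enzymes Elane, Prtn3 and Mpo. Plasma cell and secretory genes such as Sec11c, examined because Bhlha15 is one of their factors, had medians of -0.0013 and 0.032, with Mzb1 2-fold higher and Creld2 2-fold lower on the Ifnar-/- array and Fkbp11 2-fold higher on the sLTβR-Fc array. Macrophage probes had medians of -0.0074 in both comparisons and -0.20 between the controls. Cd209d was 2-fold higher and Slc40a1 and Vcam1 2-fold lower on the Ifnar-/- array. Cd209b, the gene of the SIGN-R1 protein used in the sort, was above background on every array on 1 probe alone, at 152 on the Ifnar-/- array, 145 on the sLTβR-Fc array, and 127 and 130.1 on the controls. On further probes Cd209b was above background on the Ifnar-/- array alone, at 167 and 124. As deposited, Mzb1, Fkbp11, 1 of the Mpo probes and, among the further acinar genes, Bace1 no longer met the 2-fold condition. Whether these markers have a part in the order seen for the acinar genes was not tested.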

How the data were processed

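Total RNA of sorted cells was extracted with Trizol, labelled as biotinylated cRNA with an Ambion MessageAmp kit for Illumina arrays, per the labels' protocols. GenomeStudio 2011.1 appears in the submitters' processing notes. The values the authors deposited are linear intensities of 45281 probes on each array. Whether they subtracted background or scaled the arrays is not stated in the labels. Probes were named through the platform's annotation, in which 34885 have 1 gene symbol, 18 several and 10378 none. Scanner files and detection p-values were not used here.

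Array noise was modelled from the most frequent intensity (99.4 to 109) and a mirror image of the lower values, and its 95% point was the limit for a probe above background (106 to 116). Intensities were quantile normalised over the 4 arrays, held at a floor of 111 (the mean limit) and converted to log2, with Python 3.11.15, numpy 2.4.6 and pandas 2.3.3. The floor understates differences of dim probes. A bound ("at least") was computed against the lowest signal above background. With 1 array in each of 2 groups and members chosen from these values, no test was run. A probe counts as changed where it differs at least 2-fold from each control in the same direction. Simulated arrays, with noise set by the median control gap, checked only that this rule was computed as written. They do not show how often it errs on these arrays. The labels do not say that the control arrays came from different mice, so their gap may be technical. Every member above background is named, with comparison-list genes that met the 2-fold rule (at most 4 a list) and the marker of each list with the highest value. Some others were named after their values were seen: Ptf1a, Gata4, Cckar, Krt19, Cftr, Epcam, Ins2, Cd209b, S100a8, Retnlg, Prtn3 and those under other observations. Cldn10, Erp27, Dmbt1, Gnmt and Ambp were also named after their values were seen. The members and all lists were chosen with earlier results of these data known. Alternatives were other scalings, floors, filters, 1 probe per gene, and each control left out.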

Additional observations from a re-analysis of the deposited data

How the results depend on the processing

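The median of the acinar probes on the Ifnar-/- array stayed above 0 under each alternative run. It was 0.16 with a doubled floor, 1.93 after background subtraction, 0.50 over the 15 probes above background on every array, 0.55 without a filter, and 0.69 to 0.95 with 1 control left out. The count of probes 2-fold higher there was 5 as deposited (47 of all 23299), 5 with a doubled floor (101), 22 after background subtraction (756), and 2 among the 15 probes above background on every array (108 of 15633). It was 16 without PBS 2 (218) and 7 without PBS 1 (153), so PBS 2 limits this count. On the sLTβR-Fc array the median was 0 with a doubled floor and -0.75 after background subtraction, and -0.29 to -0.059 with 1 control left out. The count of probes 2-fold lower there was 6 as deposited (878 of all 23299), 6 with median scaling (604), 1 with a doubled floor (67), 12 after background subtraction (1234), 1 among probes above background on every array (91 of 15633), 6 without PBS 1 (145) and 3 without PBS 2 (230), against 94 of all in the main setting. The median of all 23299 probes was itself -0.15 on the sLTβR-Fc array as deposited, and -0.088 on the Ifnar-/- array. Between the controls the median was 0 with a doubled floor and 0.75 after background subtraction. A doubled floor holds dim probes at 223, above most of the members' control values, and the filter to every array removes probes that are dim on the sLTβR-Fc array. The cause of the other changes was not tested. Of 612 single-probe values under the alternatives, 150 moved by more than the SD of the controls, and no called difference changed sign. The filters, 1 probe per gene and leaving out a control could not move such a value by more than that SD. All 150 moves thus came under the other settings. They were 53 of 66 after background subtraction, 38 with a doubled floor, 35 as deposited, 14 with median scaling and 10 without a floor. Of 220 comparison-list medians, 118 moved by more than that SD, which is small where controls coincide. No paired analysis was possible because the groups share only the replicate number 1.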

Other observations

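Further digestive genes and unnamed probes were picked out after their values were seen. Tff2, a secreted trefoil peptide of stomach and pancreas, read 208 on the Ifnar-/- array, was not above background on the sLTβR-Fc array, and read 130 on PBS 1 and 138 on PBS 2. Probes for Amy1, the salivary and liver amylase, and Amy2a4, a close relative of Amy2a5, read at most 113 on any array. Of the 10378 probes without a symbol, 2 were at least 2-fold above each control on the Ifnar-/- array and 2-fold below each on the sLTβR-Fc array. The probe ILMN_1224275 read 1559 on the Ifnar-/- array, 153 on the sLTβR-Fc array, 370 on PBS 1 and 663 on PBS 2. The probe ILMN_2604521 read 3084 on the Ifnar-/- array, 385 on the sLTβR-Fc array, 1011 on PBS 1 and 958 on PBS 2. The annotation used here gives neither a gene.

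The 5 other probes on which PBS 2 was at least 2-fold PBS 1 belong to spleen and blood cells or many cell types. Klra8 and Klra3, receptors of natural killer cells, read 1138 and 2342 without interferon receptor, 302 and 706 after the decoy, 323 and 810 on PBS 1, and 795 and 1693 on PBS 2, which is the order seen for the acinar enzymes. Pf4 and Itga2b, genes of platelets and megakaryocytes, did not show it, at 473 and 322 without interferon receptor, 1258 and 534 after the decoy, 777 and 216 on PBS 1, and 1883 and 450 on PBS 2. The last, Sfi1, a centrosome protein gene, read 539 on the Ifnar-/- array, 676 on the sLTβR-Fc array, 276 on PBS 1 and 565 on PBS 2.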
